A study of Papio anubis with 40 samples.

Results

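Internal Glu-CTC fragments are short pieces from inside the 5' portion of the glutamate tRNA with the anticodon CTC. They were taken as every fragment of 16 to 32 nt whose read is an exact part of one 36 nt read from the 5' end of this tRNA and begins at its base 5 or later, so the mature 5' end is missing. The rule found 125 of 58587 fragments, with 84998 of 130892201 counts (0.0649%), and it used no measured level. Serum (0.5 mL a draw) came from 8 olive baboons, Papio anubis, all of them inoculated with menstrual tissue in the abdomen under laparoscopy to induce endometriosis, and all labelled as untreated. Blood was taken ahead of inoculation, called month 0, and again at months 3, 6, 9 and 15, which gave 8 libraries per month and 40 in all. There was no uninoculated animal, so time since inoculation cannot be told apart from age or from anything else that changed between draws. No ages were stated. Replicates are different animals, each compared across its own draws, so p-values measure how differences between draws vary among these 8.

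Transfer RNAs bring amino acids to the ribosome, and this one brings glutamate. Nucleases such as angiogenin cut tRNAs in the anticodon loop and leave long 5' pieces, a class of small RNA that circulates in blood. Internal fragments lack the mature end on both sides and are catalogued as a class of their own. In serum, fewer cells that release a fragment and less of it released per cell cannot be told apart.

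The sequences below are the 8 internal fragments on which the results turn, chosen to show how first and last base differ. Capitals mark base 29 of the 36 nt read and all bases after it, the stretch in which nearly all of the internal fragments end. They are given 5' to 3' as DNA letters, as deposited.
tRF-21-R718YKIS0: ggtctagtggttaggattcgG
tRF-20-WP9N1EWJ: tctagtggttaggattcgGC
tRF-23-R718YKISD8: ggtctagtggttaggattcgGCG
tRF-19-18YKISIM: agtggttaggattcgGCGC
tRF-16-9N1EWJ0: tggttaggattcgGCG
tRF-17-9N1EWJM: tggttaggattcgGCGC
tRF-18-9N1EWJDW: tggttaggattcgGCGCT
tRF-19-9N1EWJI5: tggttaggattcgGCGCTC
Positions are counted from base 1 of the 36 nt read. In the longest deposited read that begins with it, of 75 nt, bases 10 to 13 pair with bases 22 to 25 as the D stem. Bases 27 to 31 pair with bases 39 to 43 as the anticodon stem, bases 32 to 38 form the anticodon loop, and the anticodon is at bases 34 to 36. An internal fragment that ends at base 29, 30 or 31 therefore stops inside the anticodon stem, and one that ends at base 32, 33 or 34 stops inside the loop. The RefSeq gene table lists 3 genes named TRNAE-CUC, and the fragments were not assigned to one of them.

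Most allowed pairs of first and last base were seen, 125 of 153, but the counts were concentrated in a narrow band of last bases. Base 31 was the last base of 31.6% of the internal counts, base 29 of 24.6%, base 30 of 22.8% and base 32 of 15.8%. Together these 4 bases held 94.9% of the counts. Base 33 added 2.05% and base 34 a further 2.18%, and fragments that reached the end of the anticodon made up only 0.309%. The 28 fragments that stopped at base 28 or earlier held 430 counts.

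First bases were spread more widely, over bases 8 to 16 with 96% of the counts. Base 9 was the first base of 17.6%, base 16 of 14.7%, base 12 of 13.1%, base 10 of 12% and base 11 of 10.9%. Base 16 lies in the D loop, between the strands of the D stem, and 12481 counts began there, against 1378 at base 17 and 72 at base 18. The minimum length of 16 nt sets part of this drop, since a fragment from base 17 cannot end before base 32. Among fragments that end at base 32 there were 5291 counts from base 16 and 1141 from base 17. The 5' fragment that would be left by a cut just before base 17, bases 1 to 16, had 12 counts over all libraries, far fewer than those 1378. Shorter 5' pieces are not in the table, so cuts before base 16 and earlier cannot be read this way.

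**Figure D1:**
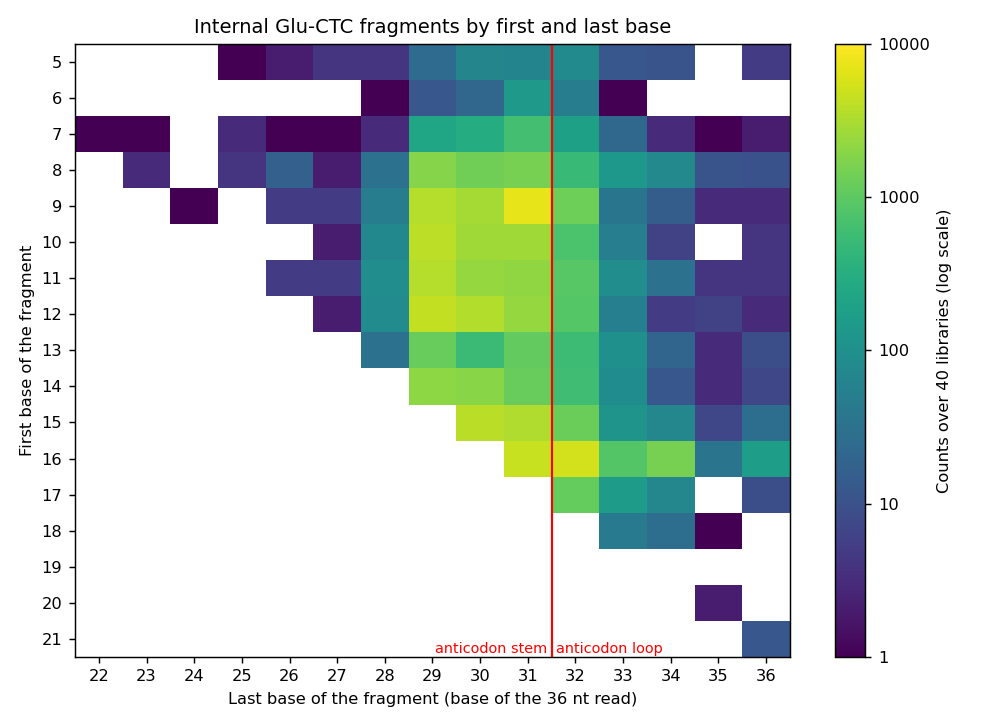
Counts of each internal Glu-CTC fragment summed over 40 libraries (colour, log scale), by first base (down) and last base (across) of the 36 nt read; white cells were not seen or would be under 16 nt. Most counts lie in a block with last bases 29 to 32 and first bases 8 to 16.

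The most abundant internal fragment was tRF-23-R718YKISD8, bases 9 to 31, with 7071 counts and 55.7 ± 24.2 CPM (counts scaled to library size; SD, n = 40 libraries). Next came tRF-17-9N1EWJM, bases 16 to 32, at 49.9 ± 112 CPM, and tRF-16-9N1EWJ0, bases 16 to 31, at 41.6 ± 65.0 CPM. Both rest on the month 15 library of PA8003: without it they averaged 32.5 ± 23.5 and 31.6 ± 15.9 CPM (SD, n = 39), next to 32.1 ± 20.6 CPM for tRF-18-43RX6ND4, bases 12 to 29. The 12 most abundant internal fragments held 57.3% of the internal counts. Beside those 3 they were tRF-18-43RX6ND4, tRF-16-73V2Y8D, tRF-20-SX73V2Y8, tRF-17-73V2Y8K, tRF-19-WP9N1EJ4, tRF-21-R718YKIS0, tRF-19-43RX6N19, tRF-22-R718YKISM and tRF-22-SX73V2Y8K, with means of 20.6 to 31.5 CPM. Only 9 of the 125 were present in all 40 libraries, 42 were present in at most 5 libraries, and 10 had a total count of 1. The month 0 library of PA8001, with 127 internal counts, held 11 of the 125, which limits the first of these numbers.

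Compared with the 5' fragments of the same tRNA, those that begin at base 1, the internal ones were rare. Over all libraries there were 1.22 internal counts per 100 5' counts, with a range of 0.452 to 3.31 between libraries. Read the same way, internal pieces of Gly-CCC gave 0.0163 per 100 and those of Val-AAC/CAC 0.00133 per 100, both below Glu-CTC in 40 of 40 libraries. Internal pieces of Lys-CTT gave 10.9 per 100, above Glu-CTC in 40 of 40 libraries. The lists differ in their 5' counts, from 269717 for Lys-CTT to 47317378 for Gly-CCC, so these are ratios and not levels.

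Library totals ran from 198840 (PA8001, month 0) to 6245450 counts (PA8914, month 9), and internal Glu-CTC counts from 127 (PA8001, month 0) to 6080 (PA8914, month 0). Where a library listed 0, up to 3 counts remain possible, or 0.480 to 15.1 CPM before scaling, for counting error only. Of these libraries, 3 stand apart and touch what follows. The month 0 library of PA8001 held only 127 internal counts and had the highest TMM scaling factor (1.93). The month 15 library of PA8003 had the lowest factor (0.458), and 70.2% of its internal counts began at base 16 (95% Wilson interval 68.6 to 71.7%). The month 15 library of PA8001 had 57.2% of its internal counts ending at bases 32 to 34 (95% Wilson interval 54.8 to 59.5%). The counts of calls among the internal Glu-CTC fragments, the summed level and the shares by first and last base are given below with and without both of these month 15 libraries. PA8873 at month 15, which stays in, had a like share of 53.1% ending at bases 32 to 34, and the highest of all 40 libraries at bases 33 and 34 (21.9%).

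After TMM scaling, the summed level of the internal fragments differed little between months. The lowest, median and highest of 8 libraries were 331, 587 and 1416 CPM at month 0, 361, 569 and 1151 CPM at month 3, and 391, 597 and 670 CPM at month 6. At month 9 they were 372, 709 and 1082 CPM and at month 15 they were 442, 634 and 1899 CPM. The ranges overlapped throughout, and the highest value at month 15 was that of PA8003. Within animals the mean log2 difference from month 0 was -0.08 ± 0.68 at month 3, -0.14 ± 0.53 at month 6, 0.07 ± 0.84 at month 9 and 0.16 ± 0.69 at month 15 (SD, n = 8). Without PA8001 and PA8003 at month 15 the last of these was -0.16 ± 0.39 (n = 6). Each mean was smaller than the spread between animals. These 4 differences share the month 0 libraries. Without TMM scaling the sum was higher at month 15 than at months 3, 6 and 9 in 6, 7 and 6 of 8 animals. With it the numbers were 5, 4 and 4. The unscaled differences were 142 ± 161, 134 ± 184 and 102 ± 134 CPM (SD, n = 8). Without PA8001 and PA8003 they were 76.5 ± 120, 68.7 ± 154 and 51.3 ± 86.7 CPM (n = 6). The unscaled sum at month 3 was lower than at month 0 in 7 of 8 animals.

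The place where the fragments ended differed between months 9 and 15. At month 15 the share of internal counts that ended at base 29 or 30 was 4.27% at the lowest, 33.7% at the median and 45.1% at the highest, against 44.1%, 53.6% and 57.2% at month 9. It was lower at month 15 in 8 of 8 animals, and the groups overlapped by only a narrow margin. The share that ended at bases 32 to 34 was 22.5%, 35.2% and 64.5% at month 15, against 6.64%, 13.2% and 24.3% at month 9, and it was higher at month 15 in 8 of 8 animals. The share that ended at base 31 moved less, with 30.5% ± 4.30 at month 15, against 33.1% ± 3.77 at month 9 (SD, n = 8), and it was lower at month 15 in 6 of 8 animals. Within animals the difference was -2.62 ± 6.69 points (n = 8). Without PA8001 and PA8003 it was -0.27 ± 5.47 points (n = 6), lower in 4 of 6 animals.

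The shares for bases 29 and 30 and for bases 32 to 34 at month 15 were also below and above, in turn, those at months 3 and 6 in 8 of 8 animals. Without PA8001 and PA8003 this held in 6 of 6 animals. With PA8001 and PA8003 left out at month 15, the difference between month 15 and month 9 was -16.2 ± 10.2 percentage points for bases 29 and 30 and 16.1 ± 10.8 points for bases 32 to 34 (SD, n = 6), in the same direction in 6 of 6 animals. Over all animals these differences were -22.7 ± 15.9 and 24.9 ± 19.0 points (SD, n = 8).

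Against month 0 the animals did not all differ in 1 direction. The share ending at base 29 or 30 was 4.27%, 33.7% and 45.1% at month 15, against 11.0%, 43.5% and 63.6% at month 0 (lowest, median, highest), and it was lower at month 15 in 4 of 8 animals. The share ending at bases 32 to 34 was 22.5%, 35.2% and 64.5% at month 15, against 6.71%, 24.1% and 37.3% at month 0, and it was higher at month 15 in 6 of 8 animals. The mean differences, -11.8 ± 20.9 and 15.1 ± 21.0 percentage points (SD, n = 8), were smaller than their spread, as were those without PA8001 and PA8003 at month 15, -8.99 ± 18.4 and 8.12 ± 17.8 points (n = 6). The groups overlapped.

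**Figure D2:**
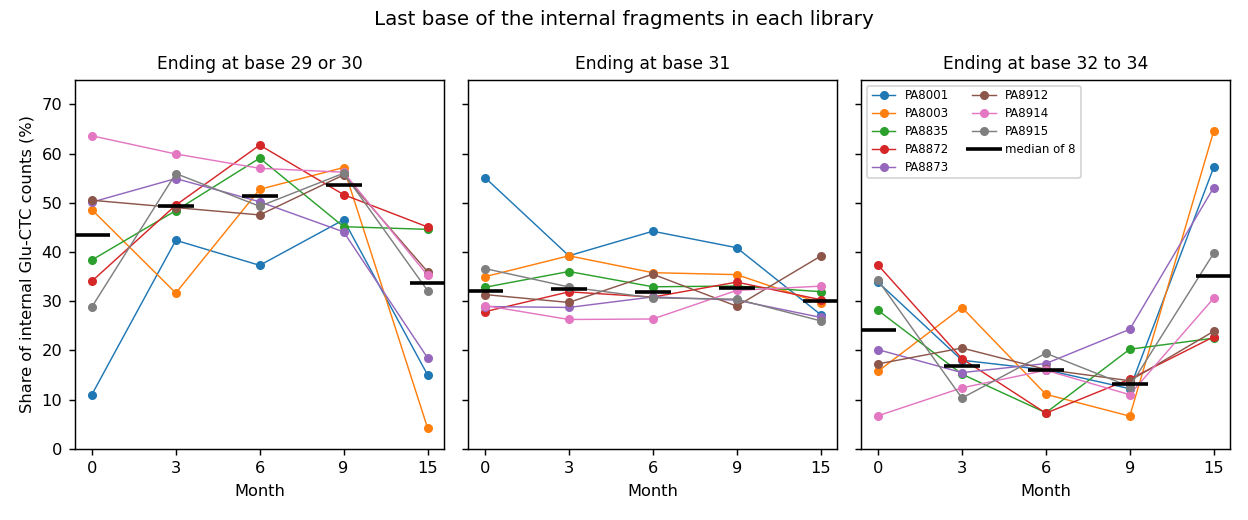
Share of internal Glu-CTC counts in each library that ended at base 29 or 30, at base 31, or at bases 32 to 34, by month; lines join the 5 draws of an animal and black bars are medians of 8. At month 15 every animal lies below its own month 9 value in the left panel and above it in the right panel.

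Fragments from base 16 cannot end at base 29 or 30, given the minimum of 16 nt, so their share is tied to the shares above. Base 16 was the first base of 9.99%, 24.9% and 70.2% of internal counts at month 15 (lowest, median, highest), against 3.25%, 7.61% and 20.9% at month 9. It was higher in 7 of 8 animals, by 19.2 ± 22.1 points (SD, n = 8), and by 10.5 ± 11.4 points without PA8001 and PA8003 (n = 6). Both of these means were smaller than their spread. The mean length of an internal fragment differed little between months, with medians of 19.6, 19.7, 19.8, 19.9 and 19.7 nt at months 0, 3, 6, 9 and 15, with a low of 17.9 nt in PA8003 at month 15. Among fragments that began at bases 7 to 14 alone, the share ending at bases 32 to 34 was 12%, 17.4% and 52.6% at month 15, against 4.89%, 7.88% and 14.4% at month 9. It was higher in 7 of 8 animals, by 17.9 ± 17.6 points, and by 9.32 ± 8.52 points without PA8001 and PA8003 (n = 6).

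Single fragments were tested with edgeR's quasi-likelihood test, with animal as a block and Benjamini-Hochberg adjustment over the 2447 fragments that passed a filter on low counts, and an adjusted p under 0.05 is called passing. Of the 125 internal fragments, 38 passed the filter, and they held 96.6% of the internal counts. The other 87 held 2898 counts, none more than 225, and were not tested. They include all 17 that begin at base 5 or 6, all 28 that end at base 28 or earlier and all 24 that end at base 35 or 36. The rarest of the 38 had 302 counts.

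None of the 38 passed at month 3, month 6 or month 9 against month 0, where 0% of all fragments passed as well. At an unadjusted p under 0.05 there were 2, 6 and 1 of them at months 3, 6 and 9 (5.26%, 15.8% and 2.63%, beside 2.98%, 12.7% and 8.21% of all fragments), and DESeq2 and limma-voom also called 0 in each. In all of these cases, some of which are the same fragment at different months, the fragment ended at base 32 and its fitted change was negative. All 10 tested fragments that end at base 32 had negative changes at month 3, with a median log2 change of -0.54, against 0.10 over all fragments tested. At month 6, 9 of 10 were negative (median -0.87, against 0.01 over all fragments), and at month 9, 9 of 10 (median -0.40, against 0.06). The 3 comparisons share the month 0 libraries.

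At month 15 against month 0, 1 of the 38 passed, tRF-20-WP9N1EWJ, bases 11 to 30, which was lower. That is 2.63% of the internal fragments, beside 0.163% of all fragments that passed as lower, and none passed as higher, beside 2.21% of all fragments. In either direction the shares were close, 2.63% of the internal fragments and 2.37% of all fragments. tRF-20-WP9N1EWJ had 1.14, 8.36 and 13.3 CPM at month 15, against 6.66, 20.3 and 56.8 CPM at month 0 (lowest, median, highest of 8). The groups overlapped, and 7 of 8 animals were lower at month 15. The log2 change was -1.33 ± 0.37 (SE), with an adjusted p of 0.0495 by edgeR's quasi-likelihood test. The call is narrow: with PA8001 and PA8003 left out at month 15 the log2 change was -0.99 and the adjusted p 0.322, and leaving out single animals gave adjusted p-values of 0.0338 to 0.252.

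The median changes at month 15 against month 0 were ordered by last base. All 7 tested fragments that end at base 29 were lower, with log2 changes of -1.17 to -0.82 and a median of -1.02. Of 9 that end at base 30, 8 were lower (median -0.46), and of 10 that end at base 31, 8 were lower (median -0.30). All 10 that end at base 32 were higher, by log2 changes of 0.25 to 1.25 with a median of 0.66, and the single fragments tested that end at base 33 and base 34 were higher by 1.60 and 1.80. The median over all 2447 fragments was 0.05. No more than tRF-20-WP9N1EWJ passed, so this is a description of fitted values and not a set of called changes.

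First base and length were then held fixed in turn. At 7 first bases, 8 to 14, fragments ending at each of bases 29 to 32 were tested. The one ending at base 32 had the highest fitted change at 7 of these 7 and the one ending at base 29 the lowest at 6, by a gap of 1.38 to 2.04 log2 units between them. The full order from base 29 to base 32 held at 4 of 7, and it failed at starts 10 and 12, where base 31 lay below base 30, and at start 11, where base 30 lay below base 29. At a fixed length, 4 or more fragments were tested at 7 lengths, 16 to 22 nt, and the changes followed the full order by last base at 2 of these 7. At 19 nt, one of those 2, the fitted log2 changes were -0.82 for bases 11 to 29, -0.46 for bases 12 to 30, 0.62 for bases 13 to 31, 0.96 for bases 14 to 32 and 1.80 for bases 16 to 34. At 20 nt, where the order failed, they were -0.82 for bases 10 to 29, -1.33 for bases 11 to 30, -0.55 for bases 12 to 31 and 1.02 for bases 13 to 32. Fragments that end in the stem but had positive fitted changes were those of start 13 ending at bases 30 and 31 (0.22 and 0.62) and of start 16 ending at base 31 (0.72). These fragments overlap and come from the same libraries, so they are not independent.

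**Figure D3:**
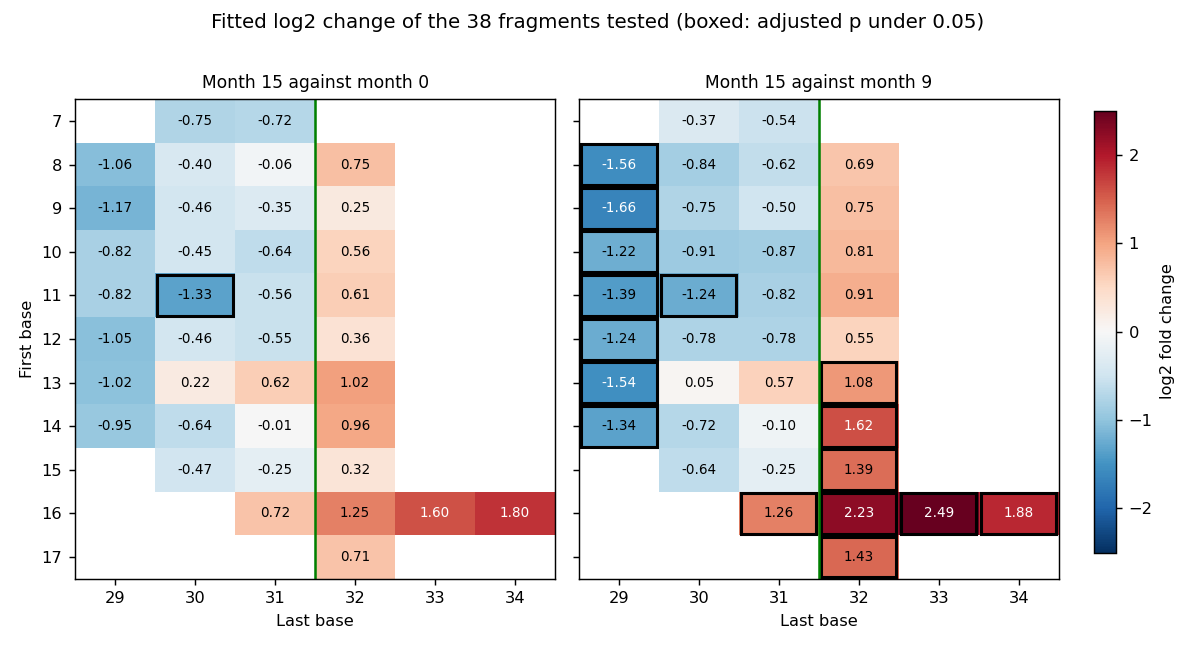
Fitted log2 change of each of the 38 internal fragments tested, by first base (down) and last base (across), for month 15 against month 0 (left) and against month 9 (right); boxes mark an adjusted p under 0.05, and the green line separates the anticodon stem from the loop. Columns 29 to 31 are mostly negative and columns 32 to 34 positive in both panels, which share the month 15 libraries.

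Against the later months more of the internal fragments passed. At month 15 against month 3, 6 were higher and 3 lower (15.8% and 7.89% of the 38, beside 7.19% and 3.92% of all fragments). Against month 6, 10 were higher and 4 lower (26.3% and 10.5%, beside 17% and 9.52%). Against month 9, 8 were higher and 8 lower (21.1% each, beside 18.2% and 12.4%). The shares that were lower against month 6 and higher against month 9 were close to those of all fragments. In the joint test of all months 10 passed (26.3%, beside 16.2%). The 3 comparisons share the month 15 libraries, and none of the 38 passed in any of them once both month 15 libraries of PA8001 and PA8003 were left out. Of all 2591 fragments tested in that fit, 0, 99 and 16 passed against months 3, 6 and 9. At an unadjusted p under 0.05 in edgeR's fit there were 8, 13 and 12 of the 38 (21.1%, 34.2% and 31.6%, beside 16.3%, 24.1% and 27% of all fragments), and DESeq2 and limma-voom were not run without these libraries.

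Direction followed the last base here too. Against month 9, all 7 fragments that end at base 29 passed as lower, with a median log2 change of -1.39, and 5 of 10 that end at base 32 passed as higher, with a median of 0.99. Of 9 that end at base 30, 1 passed, as lower, and of 10 that end at base 31, 1 passed, as higher. Without PA8001 and PA8003 at month 15 the medians were -1.24 for base 29 and 0.63 for base 32, with 7 of 7 negative and 10 of 10 positive.

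Among fragments that stop in the anticodon stem, tRF-21-R718YKIS0, bases 9 to 29, had medians of 26.3, 20.9, 29.7, 34.5 and 13.4 CPM at months 0, 3, 6, 9 and 15. Its 8 libraries at month 15 ran from 1.94 to 23.3 CPM, against 18 to 54.1 CPM at month 9. The groups overlapped, and 8 of 8 animals were lower at month 15, with a log2 change of -1.66 ± 0.42 and an adjusted p of 0.0105 (edgeR's quasi-likelihood test). It also passed as lower against month 3 (-1.28) and month 6 (-1.24), in 8 of 8 animals each.

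tRF-17-V47P594, bases 13 to 29, had 0.482, 3.69 and 7.99 CPM at month 15, against 1.77, 11.5 and 15.7 CPM at month 9 (lowest, median, highest). It was lower in 8 of 8 animals with some overlap between the groups, by a log2 change of -1.54 ± 0.43 (adjusted p 0.0127, edgeR's quasi-likelihood test). Against month 3 its change was -1.81, the most negative of the 38 in that comparison. tRF-16-18YKIS0, bases 14 to 29, changed by -1.34 against month 9 and -1.41 against month 6, both passing.

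The other fragments ending at base 29 passed only against month 9. They were tRF-22-9MV47P594 (bases 8 to 29, -1.56), tRF-19-WP9N1EJ4 (bases 11 to 29, -1.39), tRF-18-43RX6ND4 (bases 12 to 29, -1.24) and tRF-20-SX73V2Y8 (bases 10 to 29, -1.22). tRF-20-WP9N1EWJ, which ends at base 30, was lower against months 3, 6 and 9 as well, by -1.09, -1.14 and -1.24. Its medians were 20.3, 15.4, 18.4, 19.1 and 8.36 CPM at months 0, 3, 6, 9 and 15.

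The most abundant internal fragment, tRF-23-R718YKISD8, ends at base 31 and passed in no comparison. It had 25.0, 40.3 and 80.6 CPM at month 15, against 35.2, 45.6 and 110 CPM at month 0 (lowest, median, highest), with a log2 change of -0.35 ± 0.26. The groups overlapped over most of their range. tRF-16-73V2Y8D, tRF-17-73V2Y8K, tRF-19-43RX6N19, tRF-22-R718YKISM and tRF-22-SX73V2Y8K, which end at base 30 or 31, likewise passed in none, with log2 changes of -0.64 to -0.25 at month 15 against month 0.

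Among fragments that stop in the loop, tRF-17-9N1EWJM, bases 16 to 32, had medians of 40.7, 29.3, 17.9, 18.4 and 64.5 CPM at months 0, 3, 6, 9 and 15. Its libraries at month 15 ran from 26.4 to 728 CPM, against 5.71 to 45.2 CPM at month 9. It was higher at month 15 in 8 of 8 animals, and the groups overlapped. The log2 change was 2.23 ± 0.58 (adjusted p 0.0114, edgeR's quasi-likelihood test) against month 9 and 2.53 against month 6. The value of 728 CPM is that of PA8003, and the next highest library at month 15 had 100 CPM.

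tRF-19-9N1EWJI5, bases 16 to 34, had 3.45, 35.2 and 88.0 CPM at month 15, against 0.357, 7.75 and 15.8 CPM at month 9 (lowest, median, highest). It was higher in 7 of 8 animals, by a log2 change of 1.88 ± 0.60 (adjusted p 0.0207, edgeR's quasi-likelihood test), and it also passed against months 3 (1.93) and 6 (2.74). tRF-18-9N1EWJDW, bases 16 to 33, changed by 2.49 against both month 6 and month 9. tRF-16-9N1EWJ0, bases 16 to 31, changed by 1.49 against month 6 and 1.26 against month 9. It was the only fragment ending inside the stem to pass as higher, and against month 0 its fitted change of 0.72 became -0.26 with PA8001 and PA8003 left out at month 15.

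Loop-ending fragments with other first bases passed as well. tRF-19-18YKISIM, bases 14 to 32, had 3.07, 9.26 and 20.4 CPM at month 15, against 0.709, 2.58 and 5.17 CPM at month 6, and was higher in 8 of 8 animals by 2.08 ± 0.52 (adjusted p 0.0068, edgeR's quasi-likelihood test). tRF-20-V47P596V, bases 13 to 32, changed by 1.25, 1.63 and 1.08 against months 3, 6 and 9. tRF-16-RX6NMHD, bases 17 to 32, changed by 1.27, 1.64 and 1.43, and was higher in 8, 8 and 6 of 8 animals. Its highest library at month 15 was that of PA8003, with 70.9 CPM against a median of 13.0 CPM. The fragments tRF-18-73V2Y8DM (bases 15 to 32), tRF-24-R718YKISIM (bases 9 to 32) and tRF-21-43RX6NMHD (bases 12 to 32) complete the 18 that passed in any comparison. They lie outside the rule for named fragments and were named after their values were seen. Against month 6 they were higher by 1.25, 1.07 and 1.37.

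**Figure D4:**
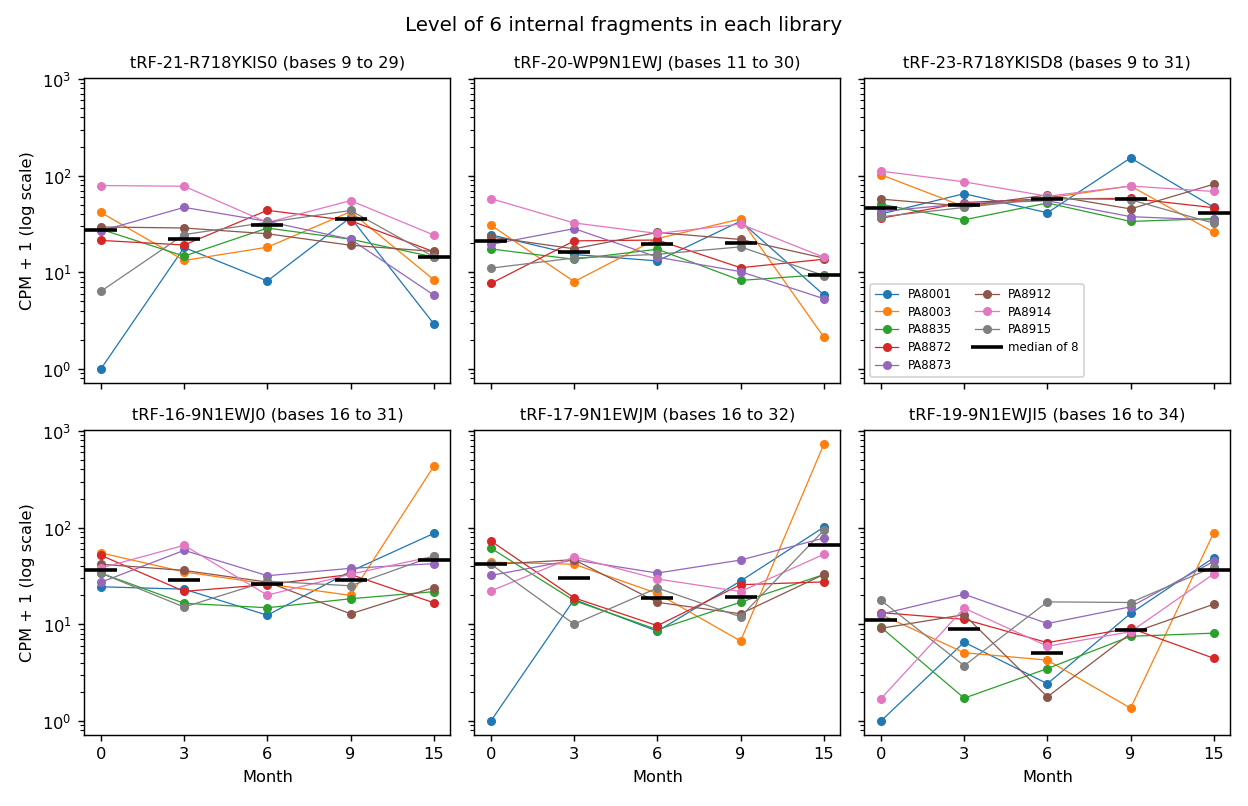
Level of 6 internal fragments in each library, as CPM plus 1 on a log axis, by month, with black bars for medians of 8 animals. The fragments ending at base 29 or 30 have their lowest medians at month 15 and those that begin at base 16 their highest, where PA8003 reaches 431 CPM (bases 16 to 31) and 728 CPM (bases 16 to 32).

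The 5' fragments of the same tRNA ended at like positions in the same libraries. Over all libraries 43.6% of the 6955837 5' counts ended at base 31, 31.0% at base 32, 15.7% at base 30 and 8.11% at base 29. The internal share ending at base 29 or 30 was above that of the 5' fragments in 39 of 40 libraries. Their share ending at bases 32 to 34 was below that of the 5' fragments in 40 of 40 libraries. This came from base 32. Over all libraries the internal shares at bases 33 and 34 were the higher ones, 2.05% and 2.18%, beside 0.984% and 0.0659% of the 5' counts. The share of 5' counts ending at bases 32 to 34 was 30.2%, 48.5% and 76.2% at month 15, against 20.7%, 26.1% and 40.4% at month 9 (lowest, median, highest), higher in 7 of 8 animals. Without PA8001 and PA8003 this 5' share was higher in 5 of 6 animals, by 15.2 ± 15.0 points (SD, n = 6). Across the 40 libraries the internal and the 5' share had a Pearson r of 0.887 and a Spearman rho of 0.873, and r was 0.889 over 38 without the 2 libraries farthest from the median. Within single months r was 0.729 to 0.95 over 8 libraries. For the share ending at base 29 or 30, r was 0.842 and rho 0.849 over 40 libraries, and within months r was 0.485 (month 9) to 0.908. The points are libraries of the same 8 animals, and both shares come from the same library preparation and depth.

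**Figure D5:**
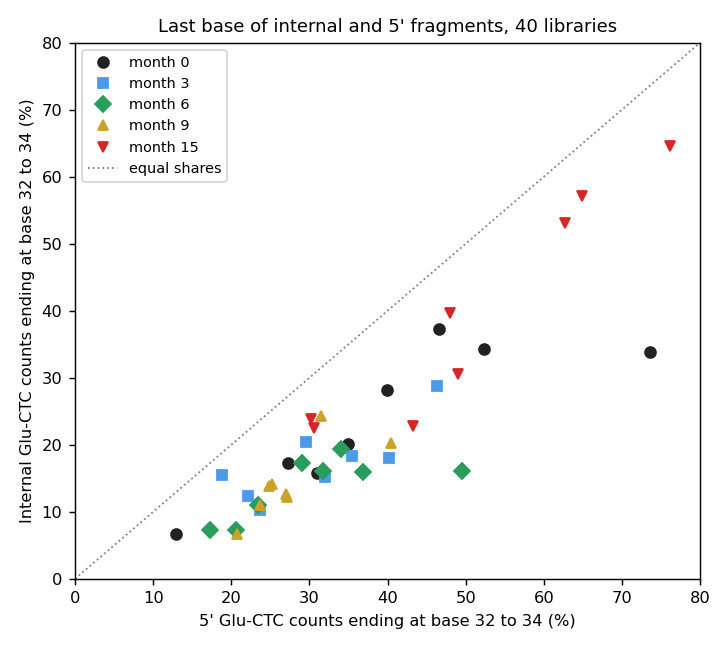
Share of counts ending at bases 32 to 34 among internal Glu-CTC fragments (vertical) and among 5' Glu-CTC fragments (horizontal) in 40 libraries, coloured by month. Every library lies below the dotted line of equal shares, and the month 15 libraries reach 64.5% and 76.2%.

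In the fit of single fragments, 5 tested 5' fragments that end at base 32 or later were all higher at month 15 than at month 9, and 5 of 5 passed. Of 7 that end at base 31 or earlier, 6 were lower and 1 passed, as higher. Beside these, 18.2% of all fragments passed as higher and 12.4% as lower. The 5' fragments overlap, and they come from the same tRNA and the same libraries, so they are not independent. When PA8001 and PA8003 were dropped at month 15, only 16 of all 2591 fragments passed against month 9. How many of those were 5' Glu-CTC fragments is not given here. Library depth moved with the shares too. Over 40 libraries the share of internal counts ending at base 29 or 30 had a Pearson r of 0.593 and a Spearman rho of 0.702 with the library total. That total was lower at month 15 than at months 3, 6 and 9 in 5, 6 and 7 of 8 animals. The part of depth in the month differences was not tested.

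For the internal fragments of other tRNAs, only the overall direction at month 15 is given. Whether they shared the order by last base was not tested. Of 17 tested internal Lys-CTT fragments, 17 had positive changes against month 9 and 15 passed, with a median log2 change of 1.75. Over all fragments tested, 18.2% passed as higher in this comparison and 12.4% as lower. Of 16 tested internal Gly-CCC fragments, 8 were positive and 8 negative, 1 passed, and the median was -0.01. The median of the 38 Glu-CTC fragments was -0.52, against -0.04 over all fragments tested. No internal Val-AAC/CAC fragment was abundant enough to be tested.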

How the data were processed

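Small RNA from serum was sequenced in 40 libraries. Per the labels' protocols, RNA came from a magnetic-bead total RNA kit, cDNA synthesis followed adapter ligation and added molecular identifiers, and sequencing was on a NovaSeq X. The authors deposited whole-number counts per fragment sequence and library, with no scaling, and a table of the sequences. The submitters' processing notes name R 4.5.0, edgeR and limma with no role; an aligner, a tRNA reference and any collapse by molecular identifier are not stated there. Floors and intervals therefore cover counting error only.

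Of 60201 lines, 1614 without a fragment ID (0.0805% of counts) were left out. Internal fragments were found by exact match to the deposited reads. The sequence and levels of the 36 nt read are not reported here. A read of another tRNA can hold the same bases: 48 reads with over 3 mismatches to the 36 nt read held 1072 counts and contained 12 of the internal fragments. For any one of the 12 they made up at most 0.308% of a total that leaves out the shorter exact parts of the 36 nt read. That total was the 36 nt read itself and the other reads that hold the fragment. The members and comparison lists were chosen with earlier results of these data known. No markers of cell types were used, since the table lists tRNA fragments only.

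Months were compared with edgeR 4.0.16 in R 4.3.3 (filterByExpr with a minimum count of 10, TMM scaling, robust quasi-likelihood fit of month and animal to all 40 libraries, two-sided), which was tested on simulated data. The pairing comes from the baboon number in the labels. Deviations from month means correlated at a mean of 0.187 within animals and -0.0247 between animals, and 53 of the 80 pairs within an animal exceeded 0.1. CPM were computed after TMM scaling unless called unscaled. Shares of counts need no scaling. Standard errors are the absolute log2 change divided by the square root of F. Sums and shares over fragments were given no test. The alternatives were other scalings and filters, DESeq2 1.42.0, limma-voom (limma 3.58.1), no replicate block, the 2 months alone and libraries left out. Fragments named with values were tRF-20-WP9N1EWJ, the 12 with the highest mean CPM and, of the 18 that passed in any comparison, the 15 with the smallest p at month 15 against month 0.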

Additional observations from a re-analysis of the deposited data

Results flagged for a closer look

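In 72 groups of 8 libraries, Dixon's test marked 8 single values as far from the rest, where chance marks about 5% of groups. The marks fall in 3 libraries. In the month 15 library of PA8003 the summed level was 1899 CPM (next 830 CPM), tRF-17-9N1EWJM had 728 CPM (next 100 CPM), tRF-16-9N1EWJ0 had 431 CPM (next 86.1 CPM) and tRF-16-RX6NMHD had 70.9 CPM (next 31.9 CPM). The scaling factor of that library was 0.458, and its unscaled sum was within the range of the other libraries. In the month 0 library of PA8914, tRF-20-WP9N1EWJ had 56.8 CPM (next 29.7 CPM), tRF-19-WP9N1EJ4 had 85.7 CPM (next 37.7 CPM) and tRF-16-18YKIS0 had 41 CPM (next 17.3 CPM). In the month 0 library of PA8003 there were 2.8 internal counts per 100 5' counts (next 1.56).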

How the results depend on the processing

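The 3 counts of 0 against month 0 at months 3, 6 and 9 were 0 under every alternative run. At month 15 against month 0, the 1 call became 0 with RLE scaling, library totals, limma-voom, the 2 months alone, without the month 0 library of PA8001 and without both month 15 libraries of PA8001 and PA8003, and 2 with DESeq2; leaving out single animals gave 0 to 1. Against month 3, the 9 calls became 4 with RLE scaling, 3 with library totals, 2 with limma-voom, 3 with no filter on low counts, 0 with the 2 months alone, 0 without both libraries and 16 with DESeq2 (0 to 12 without single animals, 0 without PA8873 or PA8914). Against month 6, the 14 calls became 9 with no filter and 0 without both libraries (6 to 15, 6 without PA8003). Against month 9, the 16 calls became 9 with no filter, 8 with the 2 months alone and 0 without both libraries (3 to 18, 3 without PA8003). In the joint test, the 10 calls became 5 with library totals, 2 with limma-voom and 0 without both libraries (0 to 10, 0 without PA8003, 2 without PA8873 and 3 without PA8914). The cause was not tested. With no replicate block the calls were 1, 7, 12, 16 and 10 at month 15 against months 0, 3, 6 and 9 and in the joint test, none moved by over 1.5 times. The log2 change of tRF-16-9N1EWJ0 at month 15 against month 0 was -0.26 without both libraries; no other named fragment changed sign in that comparison under any alternative run. The shares by last base and first base and their values without libraries were chosen after seeing the data. A total of 127 internal counts at month 0 in PA8001 limits every comparison with that month.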
